A study of Homo sapiens with 4 samples.

Results

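Termination, recycling and ribosome rescue factors are the proteins that end translation at a stop codon and clear ribosomes that fail to end it properly. 10 genes were chosen by name: ETF1, GSPT1, ABCE1, PELO, HBS1L, N6AMT1, JMJD4, LTN1, NEMF and ZNF598. The tables of the study list 9271 transcripts in all, 1 per gene, and 6 of the 10 genes have a row, ETF1, ABCE1, HBS1L, LTN1, N6AMT1 and ZNF598, each in all 4 libraries. The study measured how the aminoglycoside G418, an antibiotic that binds the decoding site of the ribosome, raises readthrough of the normal termination codon (NTC). Ribosome profiling, in which ribosome protected fragments (RPFs) are sequenced, was carried out in the established line HEK293T, derived from human embryonic kidney and carrying the SV40 large T antigen. A pair of libraries (A and B) came from untreated cells, with 0 µg/mL of drug, and another pair (A and B) from cells treated with 500 µg/mL G418, both for 24 hr. No gene was altered in either condition. The study calls A and B biological replicates, and p-values measure the spread between these libraries.

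At a stop codon in the A site, release factor eRF1 (ETF1) enters with the GTPase eRF3 (GSPT1), recognises the codon and releases the peptide, after which the ATPase ABCE1 splits the ribosome into subunits. N6AMT1 methylates eRF1 and JMJD4 hydroxylates it. Ribosomes that stall within or past a coding sequence (CDS) are met by PELO, a relative of eRF1, and its GTPase HBS1L. ZNF598 is a ubiquitin ligase that marks collided ribosomes, while LTN1 and NEMF act on the peptide that stays attached to the large subunit after splitting. Aminoglycosides let a near-cognate tRNA decode the stop codon in place of eRF1, so that the ribosome continues into the 3′UTR until it meets an in-frame stop codon there (3′TC).

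The NTCs of the 10 genes are shown because readthrough depends on the stop codon and the nucleotide after it (+4). The study also filtered transcripts on the length of the stretch after the NTC, among other criteria. Each sequence is 30 nt of the mRNA, 5′ to 3′, with the NTC and the +4 nucleotide in capitals, read from GENCODE 44 transcripts.
ETF1: gaccuugaugacuacUAGGuagucgacaug
GSPT1: guuccagagaaagacUAAGcauuuucuuga
N6AMT1: aaguucaccaagucuUAGCauacagugugu
JMJD4: gcugcugcggccccaUAGCaccugucguga
ABCE1: uuuuucuuggaugauUAGAcugacucugag
PELO: aguucugaagaggauUAAUgauugaaacuu
HBS1L: acugagauaaaagaaUGAUgggucagaauu
ZNF598: gccaggaucaucacgUAGCucccgccagcg
LTN1: cgugagacguuuuucUGAGauuuuuuucac
NEMF: aacguaaaaaggaaaUAGCugaaaugaaau
Of the 6 listed genes, 4 end in UAG (ABCE1, ETF1, N6AMT1 and ZNF598) and 2 in UGA (HBS1L and LTN1). In hg38 the NTCs lie at chr5:138508305-138508307 for ETF1, chr4:145127571-145127573 for ABCE1, chr6:134965279-134965281 for HBS1L, chr21:28930448-28930450 for LTN1, chr21:28876385-28876387 for N6AMT1 and chr16:1998232-1998234 for ZNF598. Each of these NTCs is in the last exon of its transcript, on the minus strand except for ABCE1. The proteins range from 214 residues for N6AMT1 to 1812 for LTN1, with 437 for eRF1 and 599 for ABCE1.

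GSPT1, PELO, JMJD4 and NEMF have no row in any table, so neither their CDS reads nor their readthrough were analysed here. Every listed transcript with a further stop codon in the same frame, the first 3′TC, has at least 5 sense codons from the NTC up to it. In GENCODE 44 the first 3′TC follows after 3 sense codons in GSPT1 and JMJD4 and after 2 in NEMF, while in PELO the next codon is itself a stop codon. Of 19550 canonical coding transcripts, 15.5% have fewer than 5 such codons and 3.27% have a stop codon directly after the NTC. PELO also lies within ITGA1 on the same strand. Which filter removed each of these genes was not tested. The 6 listed genes have 13 (HBS1L), 16 (ABCE1), 17 (N6AMT1), 30 (LTN1), 41 (ETF1) and 100 (ZNF598) sense codons before the first 3′TC, beside a median of 22 over 8825 listed transcripts with an in-frame 3′TC (quartiles 12 and 41). The readthrough stretch of ZNF598 was longer than that of 96.4% of these. Because GSPT1, PELO, NEMF and JMJD4 are each missing, the levels of eRF1 and eRF3, of HBS1L and PELO, of LTN1 and NEMF, and of N6AMT1 and JMJD4 could not be set against each other.

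**Figure D1:**
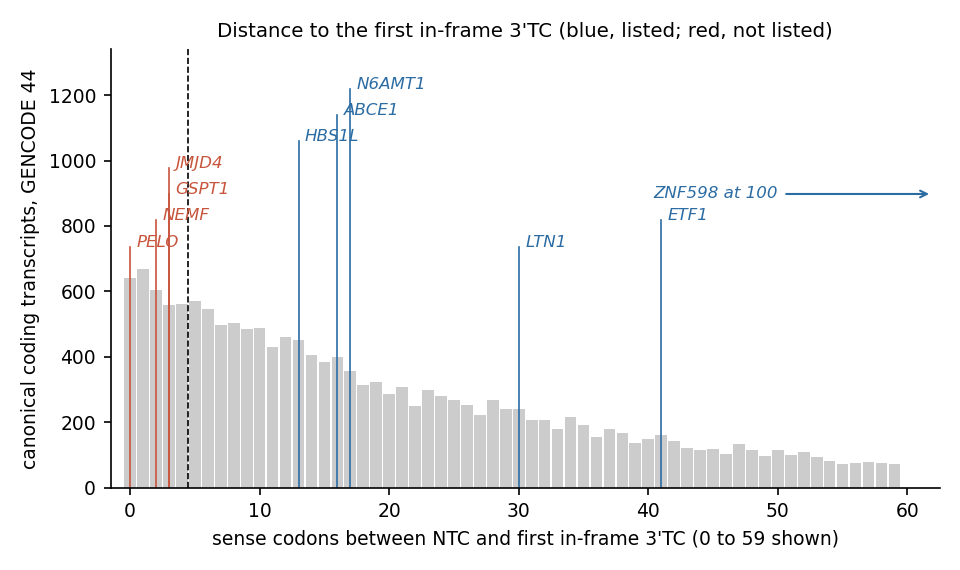
Number of canonical coding transcripts in GENCODE 44 (y axis) by the number of sense codons that follow the NTC ahead of a first in-frame 3′TC (x axis, 0 to 59 shown; 2114 transcripts with 60 or more and 1087 without an in-frame 3′TC are left out). Blue lines mark the 6 listed genes, at 13 to 41 codons with ZNF598 at 100, red lines the 4 genes without a row, at 0 to 3 codons, and the dashed line the minimum of 5 codons.

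The libraries held 6082600 (untreated A), 2440204 (untreated B), 5677910 (G418 A) and 4763858 (G418 B) reads on listed mRNAs, so untreated B was the shallowest and its values are the least precise. All 7 genes taken as markers of HEK293T cells were listed in at least 1 table, PAX2 only in those of G418-treated cells, and 0 of 5 markers of other tissues were. Exact intervals of read ratios cover counting error only, and the limits taken from 3 reads cover that of the 0 counts alone. Intervals of fitted fold changes also cover the spread between libraries. In these bulk libraries fewer cells of a type and less RNA per cell cannot be told apart, nor can the amount of an mRNA and the number of ribosomes on each copy.

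CDS levels were compared as the deposited RPKM density, which scales reads to the length of the CDS and the reads mapped in the library and allows genes of different length to be set side by side. eRF1 and ABCE1, the factors used at every termination event, had the highest ribosome densities, and the eRF1 methyltransferase N6AMT1 the lowest. ETF1 had a CDS density of 158 RPKM in untreated A, 121 in untreated B, 188 in G418 A and 169 in G418 B, above 88.8% to 91.9% of the listed transcripts. ABCE1 had 138, 114, 146 and 130 RPKM in the same order. In both genes the value of untreated B was the lowest of the 4. HBS1L had 74.8, 61.0, 74.6 and 67.5 RPKM, above 80.5% to 82.1% of transcripts.

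The collision and nascent chain ligases were translated near the middle of the range. ZNF598 had 18.5 RPKM in untreated A, 23.9 in untreated B, 21.2 in G418 A and 21.3 in G418 B, above 53.5% to 61.2% of transcripts. LTN1 had 20.98, 16.0, 18.3 and 17.1 RPKM, above 50.9% to 56.4%. N6AMT1 had 13.2, 12.2, 17.3 and 12.1 RPKM, above 42.4% to 49.9%, and rested on 29 to 88 deposited CDS counts per library. In untreated cells the order of mean densities was ETF1, ABCE1, HBS1L, ZNF598, LTN1 and N6AMT1, and it was the same in G418-treated cells. The libraries of ETF1 and ABCE1 overlapped in untreated cells but not in G418-treated cells, as did those of ZNF598 and LTN1, whereas those of LTN1 and N6AMT1 overlapped only in G418-treated cells. ABCE1, HBS1L and ZNF598 did not overlap each other in either condition.

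**Figure D2:**
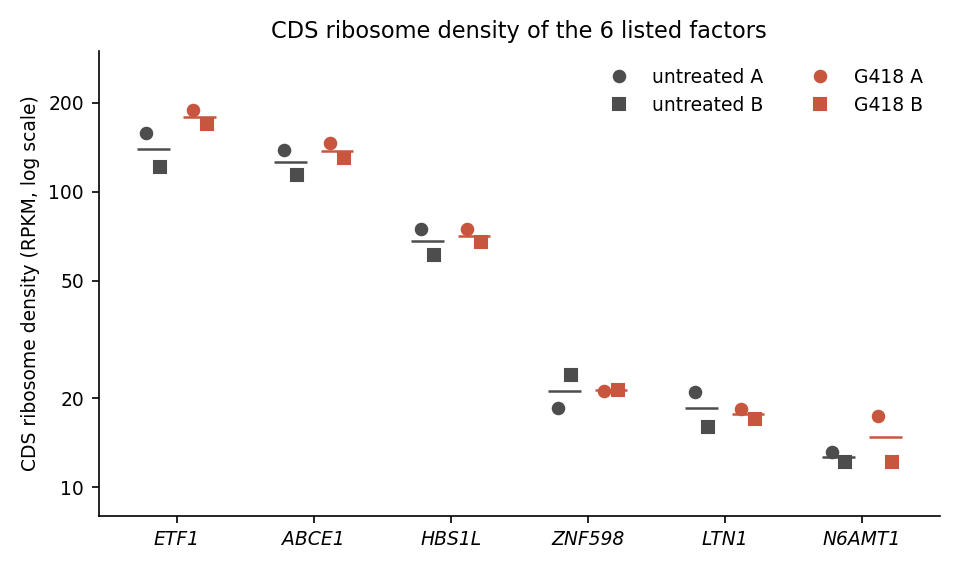
CDS ribosome density (y axis, RPKM on a log scale) of the 6 listed genes (x axis) in each library, with circles for replicate A, squares for replicate B and bars for the mean of the 2 libraries of a condition. ETF1 and ABCE1 sit between 114 and 188 RPKM, HBS1L between 61.0 and 74.8, and the other 3 genes between 12.1 and 23.9.

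Whether G418 treatment changed ribosomes on the factors' own CDSs was tested on the deposited counts with edgeR (quasi-likelihood F-test), with TMM scaling and Benjamini-Hochberg adjustment over 8494 transcripts. These counts lie 1 below the whole reads recovered from the deposited RPM (reads scaled to the mapped total) for 99.9% of transcripts in G418 A and 38.0% in G418 B, and recovered reads were used for readthrough and 5′UTR values. None of the 6 listed genes passed the adjusted p threshold of 0.05, where 8.52% of all tested transcripts did, 451 higher and 273 lower, and 1 of the 6 (ETF1) had an unadjusted p below 0.05, as did 1940 of all transcripts. DESeq2's Wald test also called 0 of the 6. The median log2 fold change was 0.018 over the 6 genes and 0.0025 over all transcripts.

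ETF1 came closest to a change. Its CDS counts were 1809 and 603 in untreated A and B and 2022 and 1658 in G418 A and B, a density of 139.6 ± 26.2 RPKM in untreated and 179 ± 13.8 in G418-treated cells (SD, n = 2 each). Both G418 libraries lay above both untreated ones, by as little as 169 against 158 RPKM. The log2 fold change was 0.28 (standard error 0.09, 95% interval 0.09 to 0.46, adjusted p = 0.066, edgeR). This result depended on the scaling and on single libraries. ETF1 passed with library totals in place of TMM, a setting that moved the median of all transcripts to 0.106 and ETF1 to 0.38 (adjusted p = 0.0060, edgeR). It also passed without untreated A (0.43, adjusted p = 1.3e-06, edgeR) and without untreated B (0.16, adjusted p = 0.040, edgeR). It did not pass with DESeq2 (0.27, adjusted p = 0.22), without G418 A (0.25, adjusted p = 0.73, edgeR) or without G418 B (0.31, adjusted p = 0.62, edgeR). ETF1 has 3 named pseudogenes in GENCODE, and reads shared with them could have been placed on either.

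The other 5 genes differed less between the conditions than ETF1 or had wide intervals. ABCE1 had 2178, 782, 2157 and 1755 CDS counts in untreated A and B and G418 A and B, and a log2 fold change of 0.05 (95% interval -0.12 to 0.23). HBS1L had 1350, 480, 1263 and 1045 counts, and a log2 fold change of -0.02 (95% interval -0.20 to 0.17). The G418 densities of HBS1L lay between those of untreated A and B, and those of ABCE1 overlapped the untreated ones.

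LTN1 had 1013, 336, 829 and 707 counts, with a log2 fold change of -0.15 (95% interval -0.35 to 0.05, adjusted p = 0.41, edgeR). The G418 densities of LTN1 lay between those of untreated A and B, and without untreated B the value was -0.26 (adjusted p = 0.0030, edgeR). ZNF598 had 443, 249, 475 and 439 counts, with a log2 fold change of -0.03 (95% interval -0.28 to 0.22). Its untreated libraries lay on either side of the G418 ones, so that the value was -0.30 without untreated A (adjusted p = 0.046, edgeR) and 0.18 without untreated B (adjusted p = 0.15, edgeR). N6AMT1 had 72, 29, 88 and 57 counts, and a log2 fold change of 0.14 with an interval from -0.27 to 0.55 did not resolve its direction at this depth. Adjusted p for ABCE1, HBS1L, LTN1, ZNF598 and N6AMT1 ranged from 0.41 to 0.95 (edgeR).

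**Figure D3:**
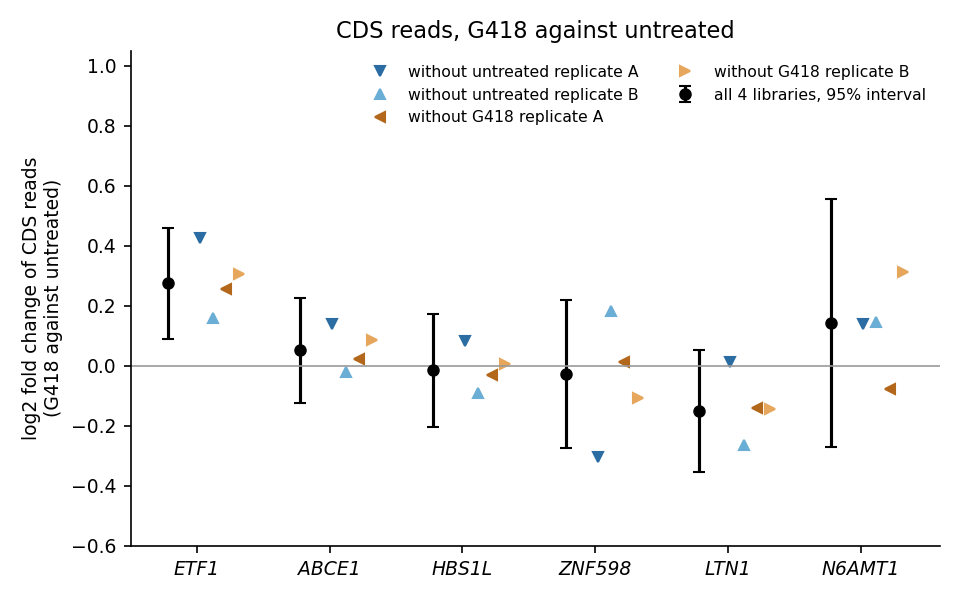
Log2 fold change of CDS reads in G418-treated against untreated cells (y axis) for the 6 listed genes (x axis), with the estimate from 4 libraries and its 95% interval in black and the estimates without each library as coloured triangles. Only the interval of ETF1 (0.09 to 0.46) lies off 0, and leaving out an untreated library moves the estimates of ETF1, ZNF598 and LTN1 the most.

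Readthrough was scored by the ribosome readthrough score (RRTS), the RPF density in the stretch from the NTC to the first 3′TC as a ratio to the CDS density of the same transcript, and given here in percent. The first 6 nt after the NTC were left out by the authors, so that 36 nt were counted in HBS1L, 45 in ABCE1, 48 in N6AMT1, 87 in LTN1, 120 in ETF1 and 297 in ZNF598. After G418 treatment RPFs were present behind the NTC of all 6 listed genes in both libraries. Over the 6 genes, 93 and 70 reads lay in these stretches in G418 A and B, 27.4% and 24.7% of what the CDS density would place there. In untreated A and B there were 13 and 4 reads, or 4.06% and 3.33%. ABCE1 alone held 10 of the 13 and 3 of the 4. Over all transcripts that reach the study's minimum of mRNA reads such sums gave 15.8% and 15.0% in G418-treated and 1.97% and 1.64% in untreated cells. N6AMT1 did not reach this minimum in any library but is in the sums of the 6 genes, with 8 and 1 reads in G418 A and B. The median RRTS of single transcripts above the minimum was 20.3% and 18.7% in G418 A and B and 0 in both untreated libraries.

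Differences were tested by the same edgeR test applied to reads ahead of the first 3′TC, offset by recovered CDS reads. Transcripts were tested if they had 10 or more such reads in total and reached the study's minimum of mRNA reads, summed here over each condition. 4 of the 6 listed genes met these minimums, and ETF1, HBS1L and ZNF598 met the first through their G418 reads, so that a difference was built into their selection. 3 of the 4 (ETF1, HBS1L and ZNF598) were higher in G418-treated cells at an adjusted p of 0.05, against 82.6% of the 2827 transcripts tested. The share of the 4 genes is thus near that of all transcripts. The median fitted log2 fold change over all 2827 was 3.18, which the same minimum of 10 reads can raise.

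ETF1, which encodes the factor that competes with readthrough, had 0 reads before its first 3′TC in both untreated libraries and 47 and 32 in G418 A and B. The RRTS was 24.8% and 20.6% in the G418 libraries (22.7% ± 2.98, SD, n = 2), while 0 reads in untreated A and B allow an RRTS of up to 1.77% and 5.31%, taking 3 reads as the limit. Per CDS read, G418-treated cells had 17.3 times what 3 reads over the untreated group would give, with the counting error of the G418 reads left out. The difference had an adjusted p of 3.7e-15 (edgeR). ETF1 passed the test under each of the 9 alternative settings that were run. Its UAGG signal was shared by 365 transcripts above the minimum of mRNA reads in G418 A and 352 in G418 B, whose median RRTS was 14.5% and 15.4%. The RRTS of ETF1 lay above both medians and within the quartiles, and 30.7% and 37.2% of the UAGG transcripts were at or above it.

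ABCE1, the recycling ATPase, had the highest measured RRTS of the 6 genes in untreated cells. It had 10 and 3 reads before the first 3′TC in untreated A and B and 17 and 15 in G418 A and B. The RRTS was 18.03% and 15.1% in untreated (16.5% ± 2.10) and 30.9% and 33.5% in G418-treated cells (32.2% ± 1.84, SD, n = 2 each). The groups did not overlap, yet the log2 fold change of 0.89 did not pass the test (95% interval -0.12 to 1.90, adjusted p = 0.095, edgeR). Over the whole 3′UTR, with 23, 7, 35 and 34 reads, it passed (0.80, adjusted p = 0.024, edgeR). An exon of OTUD4 on the other strand overlaps the 3′UTR of ABCE1 but not the stretch before the first 3′TC. Among transcripts that end in UAGA, 16 of 360 in untreated A and 14 of 246 in untreated B had an RRTS at or above that of ABCE1, and the median was 0 in both libraries. In G418 A and B 23.6% and 21.9% of them were at or above it, beside medians of 17.1% and 15.6%. Over all transcripts above the minimum of mRNA reads, 6.45% and 7.35% reached the RRTS of ABCE1 in untreated A and B. Its value in untreated B rests on 3 reads, the number taken as the limit for 0 reads. With that limit, the 0 untreated reads of LTN1 and N6AMT1 allow a higher RRTS than that of ABCE1, as do the 0 reads of HBS1L in untreated B (35.1%).

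HBS1L, the GTPase that delivers PELO, had 1 and 0 reads in untreated A and B and 7 and 5 in G418 A and B. Its RRTS was 4.16% and 0% in untreated and 31.1% and 26.8% in G418-treated cells (29.0% ± 3.01, SD, n = 2). The 0 reads of untreated B allow an RRTS of up to 35.1%, taking 3 reads as the limit, which is above both G418 values. The log2 fold change was 2.99 (95% interval 0.70 to 5.29, adjusted p = 0.015, edgeR). Counted over both libraries of each condition, the ratio was 9.51 with an exact 95% interval from 1.41 to 406, since it rests on 1 untreated read. The call was lost with DESeq2 (adjusted p = 0.13) and without untreated A (adjusted p = 0.066, edgeR), and without either G418 library HBS1L fell below the minimum of 10 reads. Over the whole 3′UTR HBS1L had 1 and 0 reads in untreated and 18 and 11 in G418-treated cells, and passed (adjusted p = 2.5e-05, edgeR). Transcripts that end in UGAU had median RRTS values of 32.7% and 29.7% in G418 A and B, close above those of HBS1L.

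ZNF598, the collision sensor, had 2 and 1 reads in untreated A and B and 9 and 14 in G418 A and B, spread over the longest stretch of the 6 genes. Its RRTS rose from 4.08% and 3.63% (3.85% ± 0.318) to 17.1% and 28.8% (22.9% ± 8.29, SD, n = 2 each), with a log2 fold change of 2.46 (95% interval 0.85 to 4.07, adjusted p = 0.0046, edgeR). The call was lost with DESeq2 (adjusted p = 0.077) and without G418 B (2.05, adjusted p = 0.092, edgeR). An unnamed gene on the other strand overlaps this stretch, and its part in the reads was not tested. Transcripts that end in UAGC had a median of 24.8% and 23.5% in G418 A and B, which ZNF598 fell below in A and exceeded in B. In untreated A and B the RRTS of ZNF598 lay above their upper quartiles of 3.57% and 2.30%.

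LTN1 and N6AMT1 were not tested. LTN1, the ligase for stalled peptides, had 0 reads in both untreated libraries and 5 and 3 in G418 A and B, an RRTS of 37.4% and 26.4% (31.9% ± 7.82, SD, n = 2). With 3 reads as the limit, 0 reads in untreated A and B allow an RRTS of up to 18.4% and 55.5%. Per CDS read, its G418 reads were 2.34 times what 3 reads over the untreated group would give, with the counting error of the G418 reads left out. Over the whole 3′UTR it had 1 and 0 reads in untreated and 8 and 5 in G418-treated cells. LTN1 had an adjusted p of 0.015 with a minimum of 1 read before the first 3′TC and of 0.0084 over the whole 3′UTR (edgeR), but it entered both tests through its G418 reads, so that a difference was built into its selection there too. Transcripts that end in UGAG had medians of 19.3% and 19.02%, and 21.1% and 34.4% of them were at or above LTN1.

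N6AMT1 had 0 and 0 reads in untreated cells and 8 and 1 in G418 A and B, which give RRTS values of 115% and 22.4%. The 2 G418 libraries thus differ by more than the whole range of the other 5 genes, on 89 and 57 recovered CDS reads. With so few reads in the untreated CDS (72 and 29), 0 reads before the first 3′TC allow an RRTS of up to 53.1% in untreated A and 132% in untreated B, and a difference was not detectable in G418 B at this depth.

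**Figure D4:**
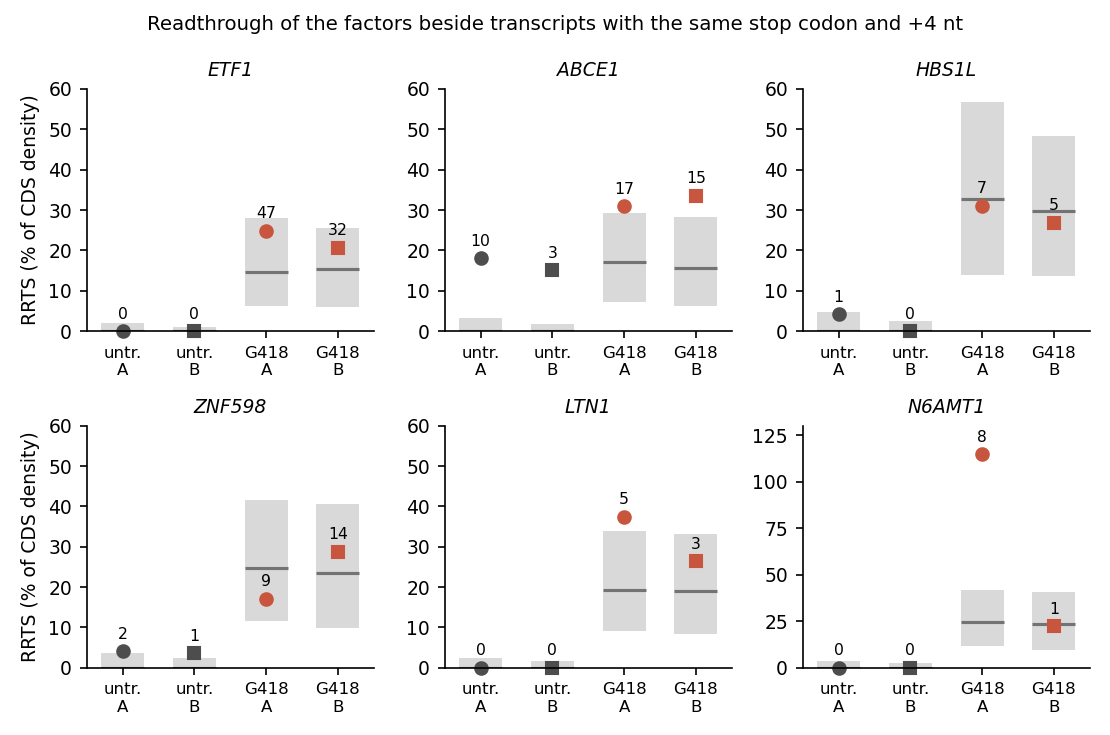
RRTS in percent of the CDS density (y axis) of each listed gene in the 4 libraries (x axis), with the number of reads before the first 3′TC printed over each point. Grey boxes span the quartiles and grey lines the median of transcripts with the same stop codon and +4 nucleotide that reach the minimum of mRNA reads in that library. ABCE1 lies above the box in all 4 libraries and the axis of N6AMT1 reaches 130%.

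In G418-treated cells the RPF density was lower after the first in-frame 3′TC than before it in all 6 listed genes and both libraries. In ETF1, 17 and 13 reads lay in the 2084 nt after the first 3′TC in G418 A and B, a density of 2.08% and 2.34% of that before it. ABCE1 had 18 and 19 reads there in 1900 nt (2.51% and 3.0%). HBS1L had 11 and 6 reads in 4859 nt (1.16% and 0.889%), LTN1 3 and 2 in 2211 nt and N6AMT1 10 and 1 in 4140 nt. Before the first 3′TC LTN1 had 5 and 3 reads and N6AMT1 8 and 1. For N6AMT1 in G418 B the comparison thus rests on 1 read on either side. In ZNF598 no read lay in the 274 nt after the first 3′TC in either G418 library, which allows up to 10.9 reads per kb, beside 30.3 and 47.1 before it. In untreated cells ABCE1 had 13 and 4 reads after the first 3′TC in A and B, a density of 3.08% and 3.16% of that before it. For the other genes few reads lay on either side, with no common direction. ETF1 had 0 reads before and 2 and 3 after, LTN1 0 before and 1 and 0 after, N6AMT1 0 before and 3 and 0 after, HBS1L 1 and 0 before and 0 after, and ZNF598 2 and 1 before and 0 and 1 after. These stretches are long and belong to 3′UTRs with 4 to 124 in-frame stop codons, and no test was made.

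Ribosomes upstream of the start codon were compared as 5′UTR reads with the CDS reads as offset, in transcripts with at least 20 5′UTR reads. 3 of the 6 listed genes could be tested and 0 changed at an adjusted p of 0.05, where 1.72% of 3656 transcripts did (edgeR), 1 higher and 62 lower. The median log2 fold change was -0.16 over all 3656 and -0.26 over the 3 genes. DESeq2 also called 0 of the 3, and 1 (ETF1) had an unadjusted p below 0.05 (edgeR). ETF1 had 7.52 and 12.4 5′UTR reads per 100 CDS reads in untreated A and B and 6.33 and 5.24 in G418 A and B. Both G418 libraries lay below both untreated ones, and the log2 fold change was -0.72 (95% interval -1.22 to -0.22, adjusted p = 0.20, edgeR). The value turned on untreated B, with -1.09 without untreated A (adjusted p = 0.00015, edgeR) and -0.37 without untreated B (adjusted p = 0.35, edgeR). ABCE1 had 9.32, 8.18, 7.32 and 9.23 such reads per 100 CDS reads, and HBS1L 7.85, 9.17, 6.88 and 7.07, with log2 fold changes of -0.10 (95% interval -0.49 to 0.29) and -0.26 (95% interval -0.74 to 0.21). LTN1, with a 5′UTR of 13 nt, and ZNF598 had 0 5′UTR reads in all 4 libraries, and N6AMT1, with 22 nt, had 1, 0, 0 and 1.

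The wider pathway was described with 6 lists of 53 genes that act beside the 10 factors. 42 had a row in every table and were tested for CDS reads, of which 1 was higher and 5 lower in G418-treated cells, beside 8.52% of all 8494 tested transcripts called in either direction (451 higher and 273 lower). Of the 4 genes that recycle the small subunit, DENR rose, with 159 and 121 RPKM in untreated A and B and 215 and 192 in G418 A and B (log2 fold change 0.45, standard error 0.11, adjusted p = 0.0071, edgeR). DENR works with MCTS1, whose value was -0.10 (adjusted p = 0.58, edgeR). DENR was not called with DESeq2 (adjusted p = 0.055).

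Of 14 tested genes of collision sensing and ribosome splitting, 0 rose and 3 fell, beside 451 that rose and 273 that fell among the 8494, and the median log2 fold change was -0.11, against 0.0025 over all transcripts. Such counts in a list of this size are a description, and the list was not tested against other transcripts. GTPBP1, a translational GTPase, had 37.9, 38.8, 32.6 and 28.6 RPKM in untreated A and B and G418 A and B, and fell by 0.39 on the log2 scale (adjusted p = 0.019, edgeR). GCN1, which senses collided ribosomes and activates the kinase GCN2, fell by 0.35 (adjusted p = 0.0098, edgeR), and RACK1, a scaffold protein of the small subunit needed for ubiquitination by ZNF598, fell by 0.26 (adjusted p = 0.018, edgeR); both were named after their values were seen. Of 5 tested genes of mRNA decay, WDR61, a subunit of the SKI complex, fell by 0.35 (adjusted p = 0.014, edgeR). Of 5 tested eRF1 partners and modifiers, TRMT112, the partner subunit of N6AMT1, fell by 0.35 (adjusted p = 0.031, edgeR). The 5 falls were not called with library totals in place of TMM (adjusted p from 0.059 to 0.14, edgeR), and GTPBP1 and TRMT112 were not called with DESeq2 (adjusted p = 0.10 and 0.11). Without G418 A or without G418 B, none of the 6 called genes passed (adjusted p from 0.26 to 0.61, edgeR).

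GSPT2, the paralog of GSPT1 that also encodes an eRF3, had 251, 101, 197 and 166 CDS counts, densities of 15.2, 14.0, 12.7 and 11.7 RPKM, and a log2 fold change of -0.33 that did not pass (adjusted p = 0.15, edgeR). Both G418 libraries of GSPT2 lay below both untreated ones. None of 9 tested genes of nascent chain quality control and none of 5 of the mitochondrial machinery were called. Their median log2 fold changes were 0.02 and 0.04. Readthrough could be tested in 21 of the 42 genes, and 19 of them were higher in G418-treated cells, beside the 82.6% of all tested transcripts given above. The genes not called, GIGYF2 and KLHDC10, named after their values were seen, had log2 fold changes of 0.92 (adjusted p = 0.35, edgeR) and 1.68 (adjusted p = 0.077, edgeR). Among the 21 tested genes, only RACK1 met the minimum of reads before the first 3′TC in untreated cells alone. RACK1 had 12 and 2 such reads in untreated A and B. The other tested genes met the minimum through their G418 reads, so that a difference was built into their selection.

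**Figure D5:**
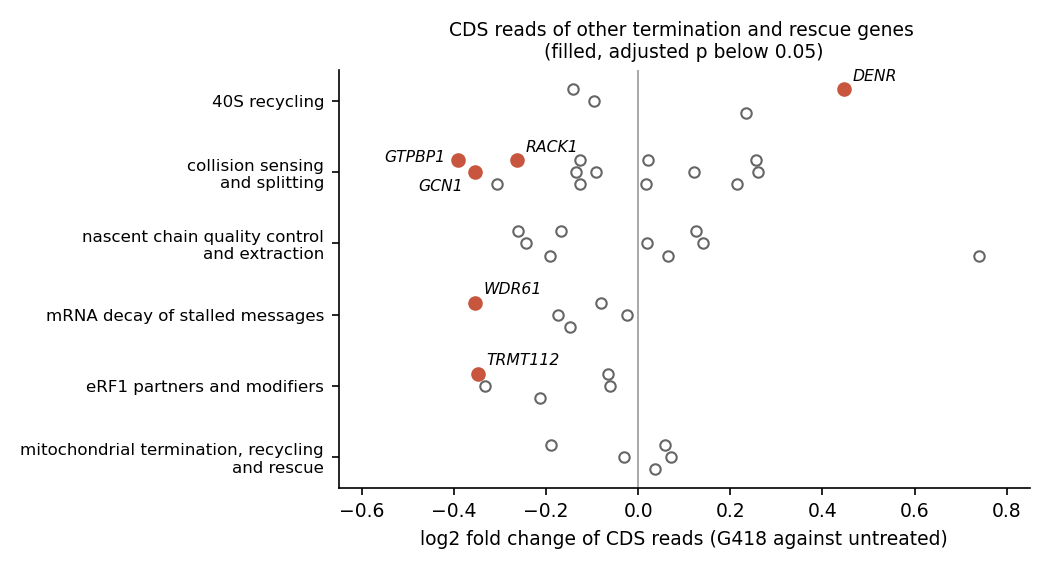
Log2 fold change of CDS reads in G418-treated against untreated cells (x axis) of 42 genes in 6 lists (y axis), each point 1 gene, shifted vertically for legibility. Filled points passed an adjusted p of 0.05 (edgeR): DENR at 0.45 and GTPBP1, GCN1, RACK1, WDR61 and TRMT112 between -0.39 and -0.26.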

How the data were processed

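4 ribosome profiling libraries were analysed. Per the submitters' notes and methods, the authors collapsed reads by molecular identifier, removed noncoding RNA, aligned reads with STAR to hg38 and kept a single alignment of reads that map to several places, so copies can share reads. CASAVA 1.8 is also named. The deposited counts are whole RPFs per region of 1 transcript per gene, and those of the CDS equalled the reads recovered from RPM or lay 1 below them (1.30%, 0.113%, 99.9% and 38.0% of transcripts in untreated A and B and G418 A and B). The deposited RPM values scale them to mapped reads, and 100% were whole multiples of 1 read (tolerance 0.01). The authors' RPKM densities divide RPM by length after leaving out 33 nt of the CDS. The deposited ratio RRTS is the density before the first 3′TC over that of the CDS. The deposited 5′UTR density, treated as a score because it can be negative, was not used.

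CDS counts as deposited (2302174 to 5775605 per library) were tested with edgeR 4.0.16 (quasi-likelihood, TMM, filterByExpr). Readthrough and 5′UTR reads recovered from RPM were tested with log(CDS reads + 0.5) as offset, at minimums of 10 and 20 reads. The number the study set as its minimum of mapped reads was applied here to sums over each condition. It was set on mRNA reads for readthrough and, as a choice made here, on CDS reads for 5′UTR reads. Recovered reads gave the alternative for CDS counts, where 0 of the 6 genes were called. DESeq2 1.42.0 was an alternative. Scripts were tested on simulated data. Intervals for fitted values are 1.96 standard errors. Gene annotation and sequences came from GENCODE 44, matching the deposited NTCs of the 6 genes. For single values, exact permutation of 2 against 2 libraries cannot give p below 0.333, so none is printed. The 10 genes and the pathway lists were chosen with earlier results of these data known. All 10 were to be named, with the largest rise and fall past the threshold in each list and GSPT2. The decay list holds an entry for the short splice form of HBS1L, which has no row of its own.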

Additional observations from a re-analysis of the deposited data

How the results depend on the processing

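The number of all transcripts with changed CDS reads moved from 724 to 243 with DESeq2 and ranged from 73 to 2082 when a library was left out. The share of higher calls was 62.3%, against 88.1% with library totals and 44.9% with DESeq2. Among the 6 listed genes the count moved from 0 to 1 with library totals and with the replicate block, and ranged from 0 to 2 without a library. For readthrough, 2336 transcripts were higher, 1372 with DESeq2, 1536 with at least 20 reads, and 1331 to 2177 without a library. Of the listed genes 3 were higher, 1 with DESeq2, 5 over the whole 3′UTR and 1 to 3 without a library. For 5′UTR reads, 63 changed, 39 with DESeq2, 163 with at least 1 read and 7 to 296 without a library; the listed genes ranged from 0 to 1. Of 111 alternatives for single genes, 98 kept their side of the threshold, 8 gained and 5 lost a call, and 0 reversed a called direction. The causes were not tested. The correlation of A minus B differences between conditions was 0.14 over transcripts, and with 2 pairs the letters do not establish a pairing; with the replicate block ETF1 was called for CDS reads (0.28, adjusted p = 0.015, edgeR), HBS1L was not called for readthrough (3.06, adjusted p = 0.089, edgeR), and no other call of the listed genes changed. Recomputing CDS levels over the whole CDS was not run, since the reads at its ends are not in the values used here, and partner ratios were not possible because a partner of each pair has no row. Readthrough of LTN1 and N6AMT1 is limited by 8 and 9 reads, and that of N6AMT1 also by 101 untreated CDS reads.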
